A study of Mus musculus with 21 samples.

Results

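In *Ebf1*-deficient lymphoid progenitors (LPs), 233 of the 5898 Zbtb1 ChIP-seq peaks lay at an annotated promoter and shared at least 1 bp with one of the 6077 Cbfa2t3 peaks. These promoters bound by both factors are described here. They were chosen by their peak calls, as rows of the Zbtb1 list annotated promoter-TSS that overlap a row of the Cbfa2t3 list, so their scores and their overlap are given without a test. QuantSeq (sequencing of mRNA near its 3′ end), whose values that rule did not use, gave the level of their nearest genes in 15 libraries. ChIP-seq had 2 replicates for each factor and 2 inputs, and QuantSeq had 3 libraries for each of 5 sgRNA conditions.

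The cells were an LP line labelled as strain C57BL6/J that was grown on OP9 stromal cells with SCF, IL-7 and Flt3L, each at 10 ng/ml. For ChIP-seq, LPs without Notch stimulation were precipitated with a mixture of antibodies against Zbtb1 or Cbfa2t3. For QuantSeq, LPs that carried Cas9-GFP received sgRNA pools against luciferase (sgControl, written sgCont in the labels), *Lmo2*, *Zbtb1*, *Cbfa2t2* or *Cbfa2t3*, and sgRNA-positive cells were sorted. *Ebf1* deficiency, Cas9, stroma and cytokines were thus shared by the 5 conditions, and all values come from 1 line. Since RNA was read in bulk, fewer cells that express a gene and less RNA per cell cannot be told apart.

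Zbtb1 is a transcription factor with a BTB domain and zinc fingers that lymphoid development requires. Cbfa2t3, also called ETO2, is a corepressor that does not bind DNA by itself and is brought to it by partners such as E proteins, Runx factors and the adaptor Lmo2. Runx factors bind a short core sequence, TGTGGT, and E proteins bind E-boxes such as CAGCTG. A promoter holds the start of transcription of a gene, is often rich in CG dinucleotides, and can recruit factors both through its sequence and through the basal transcription machinery.

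The sequences of 9 of these promoters are shown on the plus strand of mm10, with each Runx core or its reverse complement ACCACA in capitals. *Runx1*, *Kcnn4*, *Tyrobp*, *Lat*, *Zbed4* and *Celsr1* show how the core stood at promoters with high scores for one factor or both, or with a changed gene. *Ywhah*, *Nktr* and *Fmnl1* are promoters without the core whose genes changed. The stretches lie in the 150 bp at the centre of the Zbtb1 peak outside annotated exons, and at *Runx1* and *Lat* in the 30 bp around the core.
Runx1, chr16:92826021-92826050: ggctacccaactTGTGGTtcTGTGGTtgtt
Kcnn4, chr7:24369921-24370070: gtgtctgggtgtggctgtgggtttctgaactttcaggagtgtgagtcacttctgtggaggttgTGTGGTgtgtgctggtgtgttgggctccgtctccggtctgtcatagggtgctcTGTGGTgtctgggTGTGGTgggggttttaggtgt
Tyrobp, chr7:30412956-30413105: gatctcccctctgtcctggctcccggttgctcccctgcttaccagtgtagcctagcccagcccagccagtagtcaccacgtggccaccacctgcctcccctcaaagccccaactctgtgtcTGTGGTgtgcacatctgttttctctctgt
Lat, chr7:126369556-126369585: gcgacaggaagcTGTGGTgagggcaggaaa
Zbed4, chr15:88751155-88751304: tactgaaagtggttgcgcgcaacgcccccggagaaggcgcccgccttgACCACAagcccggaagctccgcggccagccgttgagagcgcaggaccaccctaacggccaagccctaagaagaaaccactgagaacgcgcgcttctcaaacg
Celsr1, chr15:86034098-86034247: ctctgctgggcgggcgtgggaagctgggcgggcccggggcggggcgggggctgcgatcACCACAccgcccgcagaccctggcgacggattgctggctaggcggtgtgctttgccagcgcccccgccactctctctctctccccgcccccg
Ywhah, chr5:33018731-33018815: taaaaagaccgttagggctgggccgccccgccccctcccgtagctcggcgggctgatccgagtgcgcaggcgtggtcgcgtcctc
Nktr, chr9:121718870-121719019: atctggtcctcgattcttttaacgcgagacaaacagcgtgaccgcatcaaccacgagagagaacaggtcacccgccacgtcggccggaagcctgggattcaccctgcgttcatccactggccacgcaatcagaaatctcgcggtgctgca
Fmnl1, chr11:103170897-103171046: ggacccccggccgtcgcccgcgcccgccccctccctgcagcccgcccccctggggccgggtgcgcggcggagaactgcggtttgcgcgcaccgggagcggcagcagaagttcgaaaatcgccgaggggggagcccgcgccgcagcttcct

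These stretches differed in both letters and place. At *Runx1*, a pair of cores stood close together near the centre of the peak, 36 bp inside the transcript that starts at the distal of its promoters. *Kcnn4*, the gene of a calcium-activated potassium channel, held 5 cores in the central 200 bp, the most of any of the 233 promoters. The stretches of *Ywhah* and *Fmnl1* were rich in G and C, with 71.5% and 79.5% GC over the central 200 bp.

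Promoter peaks and distal peaks of Zbtb1 were compared for the share that also had a Cbfa2t3 peak. Of the 1756 Zbtb1 peaks at promoters, 13.3% had a Cbfa2t3 peak, against 30.2% of the 4142 Zbtb1 peaks elsewhere. Seen from the other list, 33.0% (255) of the 773 Cbfa2t3 promoter peaks had a Zbtb1 peak. Promoters thus made up 15.7% of the 1485 sites bound by both, 34.5% of the Zbtb1 peaks without Cbfa2t3 and 11.3% of the Cbfa2t3 peaks without Zbtb1. For 226 of the 233 promoters the Cbfa2t3 peak was also annotated promoter-TSS, and for 217 both lists named the same nearest gene.

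The Peak Score is the normalized tag count that HOMER gave each peak, 1 value per peak for both replicates, so it carries neither a replicate error nor a depth. The Zbtb1 score had a median of 41.3 (quartiles 22.1 and 100.9) and the Cbfa2t3 score a median of 28.1 (quartiles 23.9 and 39.7). Zbtb1-only promoters had a median Zbtb1 score of 31.5, and Cbfa2t3-only promoters a median Cbfa2t3 score of 27.6. Distal sites bound by both were the other way round, with a median of 29.05 for Zbtb1 and 42.05 for Cbfa2t3. Across the promoters, which share both lists and are no replicates, Spearman's rho of the 2 scores was 0.017 and Pearson's r of their log2 values 0.19. The Zbtb1 score was the higher one at 130 promoters and the lower one at 103. The 2 lists come from different antibodies, and their lowest scores among the 233 were 15 for Zbtb1 and 20.7 for Cbfa2t3. Which score is the higher one, here or below, therefore does not show which factor bound more. At 59 promoters the Zbtb1 score reached 100, and at 10 the Cbfa2t3 score did.

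The highest scores belonged to repeated genes. The 4 copies of *Rn4.5s*, a small non-coding RNA, had Zbtb1 scores of 2328.0 (2 copies) and 4459.2 (2 copies) and Cbfa2t3 scores from 130.3 to 209.9. Reads that map to several places had been kept by the authors, and scores within a family of copies were the same or close, so the level of a single copy is not known. In all, 16 promoters formed 6 families of near-identical sequence, with at most 37 differences in 371 bp, among them 5 promoters of predicted genes on chromosome 4 with Zbtb1 scores of 30.2 to 30.6. The other 217 promoters had no such copy.

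Among the single-copy promoters with the highest Zbtb1 scores, Cbfa2t3 scores lay both below and above their median of 28.1. *Fam53a* had a Zbtb1 score of 674.9 and a Cbfa2t3 score of 23.6. *Brpf1*, a scaffold of histone acetyltransferases, had 659.3 and 44.0, and *Tsc22d2* 606.9 and 24.2. *Msh6*, a DNA mismatch repair gene, had 525.7 and 66.8. All of these are promoters at which Zbtb1 had by far the higher score. *Nktr*, the gene of a cyclophilin-related protein, had 496.9 and 33.2, and *Manf*, a factor of the endoplasmic reticulum stress response, 443.0 and 23.2. The reverse held at *D17H6S56E-5*, with 36.0 for Zbtb1 and 466.4 for Cbfa2t3. *Lat*, an adaptor of T-cell receptor signalling, had a Zbtb1 score of 15.8 and a Cbfa2t3 score of 139.0. *Tyrobp*, the adaptor DAP12 of natural killer and myeloid cell receptors, had 21.6 and 133.6. *Endou*, which encodes an endoribonuclease, had 26.5 and 125.3, and *Cd2ap*, a cytoskeletal adaptor, 32.9 and 117.4. *Zbed4*, a zinc finger gene, was the exception with 392.0 and 103.9, and apart from the *Rn4.5s* copies it was the only promoter with both scores at 100 or more.

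**Figure D1:**
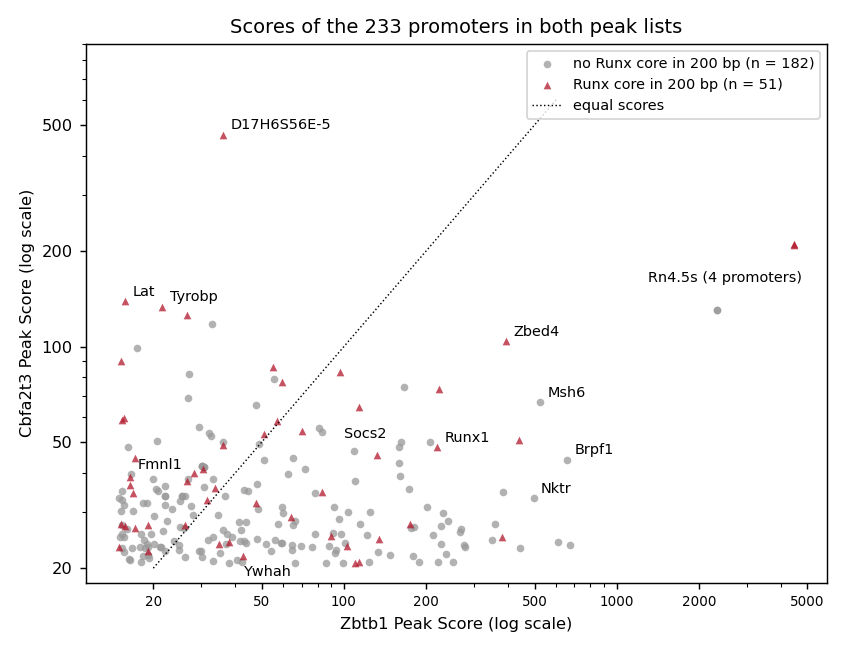
Zbtb1 Peak Score (x axis) against Cbfa2t3 Peak Score (y axis), both on log scales without unit, for the 233 promoters in both lists; red triangles mark the 51 promoters with a Runx core in the central 200 bp and the dotted line equal scores. Spearman's rho is 0.017 and Pearson's r of the log2 scores 0.19, and 7 of the 10 promoters with a Cbfa2t3 score of at least 100 are triangles.

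The lowest Zbtb1 scores inside the selection were 15 at *Pnpla8* and at *Ccnd3* and 15.1 at *Tpt1*, and the lowest Cbfa2t3 scores 20.7 at *Ttc32* and *Fads6* and 20.8 at *Tcf3*. *Tmem123*, *Ehd1* and *Ywhaq* had the smallest overlaps, with 8, 10 and 11 bp. Just outside, the peaks at *Myo9b* missed each other by 3 bp, those at *Cltc* by 19 bp and those at *Pgls* by 23 bp. Their Cbfa2t3 scores of 34.4, 43.7 and 326.9 were above the 22.9, 21.9 and 25.9 of the smallest overlaps. A Cbfa2t3 peak lay under 1 kb away at 67 of the 1523 Zbtb1-only promoters.

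The peaks of the 2 factors mostly covered the same bases. All Zbtb1 peaks were listed with 371 bp and all Cbfa2t3 peaks with 379 bp. A median of 323 bp was shared (range 8 to 371), and the centres were a median of 52 bp apart, against 36 bp at the distal sites bound by both. The centres lay within 20 bp at 62 promoters, within 50 bp at 116 and within 200 bp at 193. *Kcnn4* had centres 2 bp apart, *Runx1* 10 bp and *Socs2* 15 bp, while those at *Repin1* were 328 bp apart.

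Zbtb1 sat further upstream here than at its other promoters. Its peak centre was at a median distance of -83 bp from the transcription start, where a minus means upstream, and 65.2% (152) of the 233 centres lay upstream. At the Zbtb1-only promoters the median distance was 18 bp downstream and 43.4% lay upstream. At the Cbfa2t3-only promoters the median was -93.5 bp and 73.9% lay upstream. Coding genes started on both strands within 1 kb at 11.6% (27) of the promoters bound by both, at 16.4% of the Zbtb1-only promoters and at 10.8% of the Cbfa2t3-only promoters. At 12 promoters, copies included, no coding gene started within 1 kb. These shares are descriptions of the lists and were not tested.

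**Figure D2:**
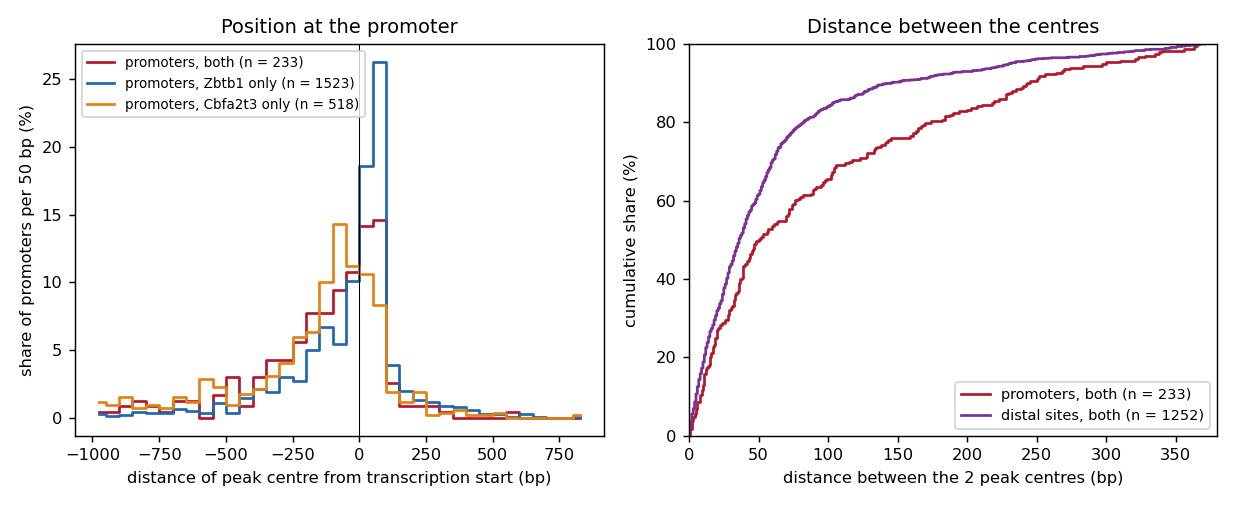
Left, the share of promoters (%) per 50 bp of distance (bp) between peak centre and transcription start for the 233 promoters bound by both (red), 1523 bound by Zbtb1 only (blue) and 518 bound by Cbfa2t3 only (orange); right, the cumulative share (%) against the distance (bp) between the 2 centres for these promoters and 1252 distal sites. Promoters bound by both lie between the other classes upstream of the start, with a median of -83 bp, and their centres were further apart than those of the distal sites.

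In GC content, CG dinucleotides and GC boxes, the promoters bound by both stood between the single-factor classes. Over the central 200 bp, the median GC content was 67%, against 72% at Zbtb1-only and 62% at Cbfa2t3-only promoters and 54% at distal sites bound by both. The ratio of observed to expected CG dinucleotides had a median of 0.874, against 0.963, 0.630 and 0.296. A GC box (GGGCGG on either strand), the site of Sp factors, was found in 55.4% of them, against 66.0% and 48.2% at the single-factor promoters and 13.5% at distal sites. At the 21938 starts of protein-coding genes its share was 40.0%.

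A Runx core, TGTGGT in either direction, stood in 51 of the 233 promoters. This was 21.9% (95% exact binomial interval 16.8% to 27.8%, for counting error only), against 13.2% (11.5% to 15%) of the Zbtb1-only promoters, 18.4% (15.1% to 22.0%) of the Cbfa2t3-only promoters and 9.98% of all coding starts. At distal sites bound by both it was 65.7% (63.0% to 68.3%). Where present, the nearest core was a median of 29.5 bp from the peak centre, and within 50 bp at 39 of the 51. By score, it was 14.4% (18 of 125) below a Cbfa2t3 score of 30, 26.5% (26 of 98) from 30 to 100 and 70.0% (7 of 10) above, and in the same ranges of the Zbtb1 score 22.4%, 20.2% and 23.7%. The 10 highest include the *Rn4.5s* copies, which share 1 sequence in each pair. At 10 promoters the core occurred more than once, with 5 at *Kcnn4*, 3 at *Runx1* and 2 each at *Lrrfip1*, *Ndufs7*, *Zfp652*, *Cmpk2*, *Grap2*, *Ptgis*, *Cmklr1* and *AI467606*.

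E-boxes also fell between the single-factor classes. CAGCTG was found in 18.0% (13.3% to 23.6%) around the Zbtb1 centre and in 29.2% around the Cbfa2t3 centre, against 45.8% of the Cbfa2t3-only and 9.59% of the Zbtb1-only promoters and 12.3% of coding starts. CAGATG stood in 10.7%, against 18.4%, 4.27% and 9.44% in the same order. The STAT palindrome TTCNNNGAA was found in 5.58% of the promoters bound by both, against 5.22% of the Cbfa2t3-only and 1.84% of the Zbtb1-only promoters and 4.94% of coding starts. It stood in 10.7% (11 of 103) of the promoters where Cbfa2t3 had the higher score and in 1.54% (2 of 130) where Zbtb1 had. The 103 include families of 3, 5 and 2 near-identical copies, which are not independent windows. Other motifs went the other way in this split, such as TGACGTCA in 1 of the 103 and 6 of the 130. The NF-Y box CCAAT occurred in 21.5% of the promoters bound by both. This was against 19.5% of the Cbfa2t3-only and 16.4% of the Zbtb1-only promoters and 28.1% of coding starts. These matches are letters in a window and no measured sites, and the differences between classes were not tested.

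**Figure D3:**
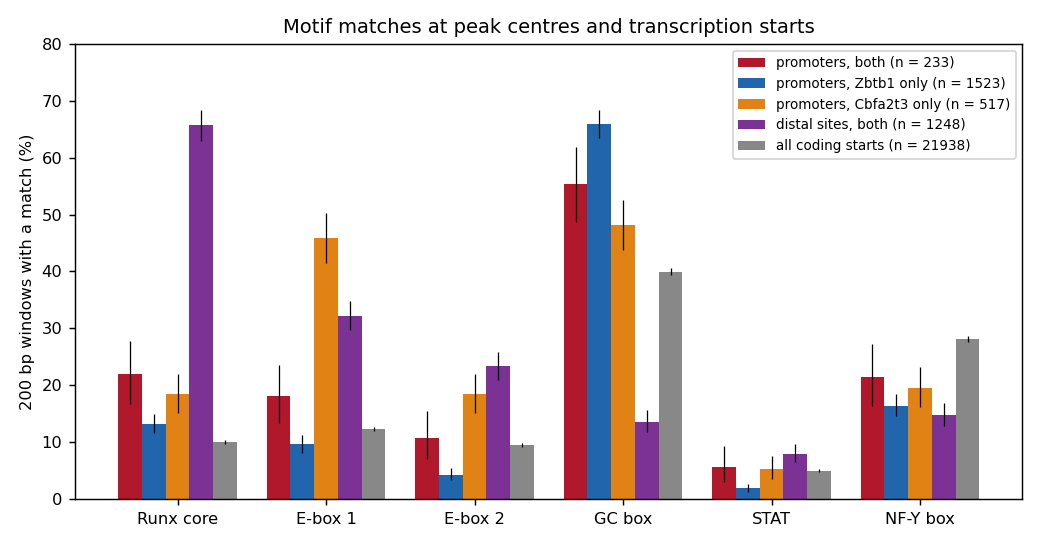
Share (%) of 200 bp windows with a match to each of 6 motifs (E-box 1 is CAGCTG and E-box 2 CAGATG) for promoters bound by both (n = 233), by Zbtb1 only (1523) or Cbfa2t3 only (517), distal sites bound by both (1248) and all coding starts (21938), with exact 95% binomial intervals as bars. The Runx core stands at 21.9% of the promoters and 65.7% of the distal sites bound by both, and the GC box at 55.4% and 13.5%.

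Of the 233 promoters, 228 had a nearest gene in QuantSeq, which made 223 genes since 9 promoters shared their gene with another one. The 5 without a gene were the 4 *Rn4.5s* copies and *D17H6S56E-5*. What the authors call TPM is here a CPM value, the reads of a gene as a share of its library on a fixed scale. QuantSeq yields reads from the 3′ end of an mRNA and the values were not divided by length, so levels of different genes were compared on this scale alone. The 15 libraries held 1705416 to 2095447 reads, so 3 reads, taken as the floor, were worth 1.43 to 1.76 TPM.

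The genes at these promoters were mostly expressed in sgControl LPs. Their mean of the 3 sgControl libraries had a median of 43.1 TPM over 223 genes, with quartiles of 12.8 and 110.0 TPM, and 78.9% (176) were above 10 TPM. In the single libraries the median was 40.7, 44.6 and 45.2 TPM. Genes with Zbtb1-only promoters (1461) had a median of 35.7 TPM, and genes with Cbfa2t3-only promoters (473) a median of 27.8 TPM. Genes above 100 TPM made up 29.1%, 21.5% and 22.0% of these classes. Within the promoters bound by both, the median was 59.1 TPM over the 126 genes where the Zbtb1 score was higher and 30.7 TPM over the 97 others. Spearman's rho over genes, which are not independent replicates, was 0.17 between the Zbtb1 score and the level and -0.03 for the Cbfa2t3 score. *Socs2*, a feedback inhibitor of cytokine receptors, was the highest at 2409 ± 109 TPM (SD, n = 3), followed by *Ptma* at 1547 TPM. At the other end, 12 genes were listed at 0 in the 3 sgControl libraries, 9 of them in all 15.

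**Figure D4:**
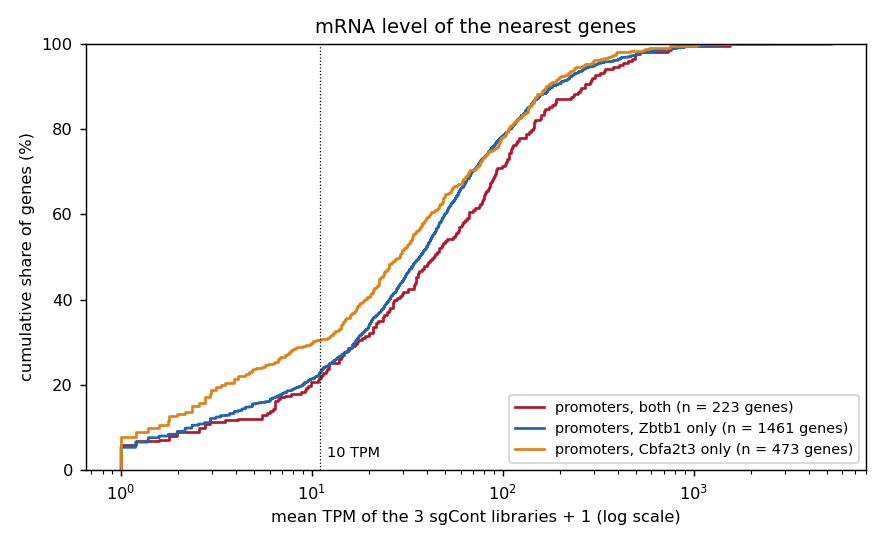
Cumulative share of genes (%) against the mean TPM of the 3 sgCont libraries plus 1 (log scale), for genes nearest to promoters bound by both factors (223, red), by Zbtb1 only (1461, blue) and by Cbfa2t3 only (473, orange). The red curve reaches 50% at a higher level than the others, with medians of 43.1, 35.7 and 27.8 TPM.

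To ask whether these genes depend on either factor, each sgRNA condition was compared with sgControl by limma on log2(TPM + 1) in one fit of the 15 libraries, with Benjamini-Hochberg adjustment over the 11554 genes whose mean was above 1 TPM. Fold changes on this scale understate those of weakly expressed genes. Of the 223 genes, 205 passed that filter. None of the 4 targeted genes was lower by the test in the libraries labelled with its sgRNA, and 2 were higher. *Zbtb1* was at 94.4 to 113 TPM in the libraries labelled sgZbtb1 and at 55.7 to 66.6 TPM in sgControl, and *Cbfa2t3* at 340.5 to 364 TPM against 172 to 210 TPM. *Cbfa2t2* was at 16.4 to 25.5 TPM in the libraries labelled sgCbfa2t2 and at 11 to 12.3 TPM in sgControl, which did not overlap but did not pass (adjusted p = 0.412, limma). *Lmo2* was at 8.48 to 24.4 TPM with sgLmo2 and at 15.8 to 23.2 TPM in sgControl (adjusted p = 0.956). Reads at the 3′ end do not show whether an sgRNA cut destroyed the protein. From immunoblots (not analysed here), the paper reports that Zbtb1, Cbfa2t3 and Lmo2 protein was lost with the matching sgRNA. The conditions are called here the libraries labelled with each sgRNA, and every direction below is drawn from such labels. *Ebf1* mRNA itself was at 209 to 366 TPM in the 15 libraries, so the deficiency after which the line is named was not visible at the 3′ end. Of 10 stromal markers *Dcn*, *Col3a1* and *Lum* were at 0 throughout, and the 10 together summed to 0 to 2.34 TPM in sgControl, 0 to 2.87 TPM in the libraries labelled sgZbtb1 and 2.19 to 8.80 TPM in those labelled sgLmo2. Of 10 B-lineage markers *Cd79a* and *Ms4a1* were at 0 throughout and 4 passed the filter. Of these, *Ebf1* and *Pax5* were lower in sgZbtb1, where 2.94% of all genes were. The 10 summed to 311 to 379 TPM in sgControl and 213 to 231 TPM in sgZbtb1, most of which was *Ebf1* alone (305 to 366 TPM and 209 to 221 TPM). With sgCbfa2t3 the sum was 258 to 292 TPM and with sgCbfa2t2 256 to 275 TPM, both also below sgControl, and with sgLmo2 it was 261 to 333 TPM. Summed over 12 T-lineage markers, of which *Lat* alone has a promoter bound by both, the level was 451 to 501 TPM in sgControl and 220.4 to 299 TPM in the libraries labelled sgZbtb1. Of the 8 T-lineage markers tested, *Cd247*, *Lck* and *Thy1* were lower in sgZbtb1, where 2.94% of all genes were. The T-lineage sum was 346 to 388 TPM with sgCbfa2t3, where *Thy1* was lower (0.407% of all genes were). It was 390.3 to 414 TPM with sgCbfa2t2 and 512 to 564 TPM with sgLmo2, so these ranges did not overlap that of sgControl either. Of 12 lymphoid progenitor markers, all tested, *Cd34* was higher and *Kit* and *Ptprc* lower in sgZbtb1 (1.85% and 2.94% of all genes were). They summed to 1422 to 1519 TPM in sgZbtb1 and 1403 to 1669 TPM in sgControl, which overlapped. Of 10 myeloid markers 4 were tested and 0 passed in sgZbtb1, with overlapping sums of 19.1 to 38.0 TPM and 24.0 to 31.4 TPM in sgControl. The part of these shifts in the results below was not tested.

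In the libraries labelled sgZbtb1, 17 of the 205 genes passed an adjusted p of 0.05 (limma), of which 3 were higher and 14 lower than in sgControl. This was 8.29% of the genes, where 4.79% of all genes tested passed. Lower genes made up 6.83%, against 2.94% of all, and higher genes 1.46%, against 1.85% of all. Genes with Zbtb1-only promoters had 5.34% (35 higher and 36 lower of 1330) and genes with Cbfa2t3-only promoters 7.84% (11 higher and 21 lower of 408). At an unadjusted p under 0.05 the share was 22.9%, where 17.6% of all genes had one, and the median log2 fold change was -0.03, as over all genes. Whether the classes differ was not tested. Without sgZbtb1 replicate 1 the 17 became 11, and with both scores at 30 or more 3 of 53 genes passed. Of the 42 genes with a Runx core at the promoter 7 (16.7%) passed, and of the 163 without it 10 (6.13%). The share called was 8.00%, 6.41% and 11.3% with Zbtb1 scores under 30, of 30 to 100 and above. In 8 of the 17 (*Acsl3*, *Fmnl1*, *Pcyt1a*, *Repin1*, *Runx1*, *Uchl5*, *Ywhah* and *Zfand5*) the sgZbtb1 libraries overlapped none of the other 12. How many of all called genes do so was not counted, so this describes these 8 genes alone.

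*Runx1* and *Ywhah* fell with the lowest adjusted p-values of the 17. *Runx1* encodes a Runx factor that blood and lymphoid development requires, and its promoter (Zbtb1 score 219.7, Cbfa2t3 score 48.1) holds 3 cores. The sgControl libraries read 334, 324 and 303 TPM, and those labelled sgZbtb1 178, 186 and 175 TPM. The 3 sgZbtb1 libraries lay below all 12 others, and the log2 fold change was -0.83 (standard error 0.10, adjusted p = 3.28e-09, limma). In the libraries labelled sgCbfa2t3 it was at 319, 285 and 256 TPM (adjusted p = 0.588), and the direct comparison of sgZbtb1 with sgCbfa2t3 gave -0.66 (adjusted p = 3.29e-06). *Runx1* has 7 further Zbtb1 peaks nearest to it, so the promoter is not its only bound site. *Ywhah* encodes a 14-3-3 adaptor protein, and its promoter (scores 40.5 and 21.2) has no Runx core. It was at 125, 149.9 and 119.6 TPM in sgControl and 46.4, 69.3 and 45.2 TPM in sgZbtb1, with no overlap. The log2 fold change was -1.30 (standard error 0.13, adjusted p = 5.07e-11), the strongest by p among the 205 genes. With sgCbfa2t3 *Ywhah* was at 159, 156 and 155 TPM, and sgZbtb1 differed from it by -1.56 (adjusted p = 1.25e-13).

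*Tyrobp*, *Celsr1*, *Bmp2k* and *Prkcb* also fell. *Tyrobp*, whose promoter had one of the highest Cbfa2t3 scores, was at 152, 197 and 194 TPM in sgControl and 132, 104 and 116 TPM in sgZbtb1, a log2 fold change of -0.61 (standard error 0.12, adjusted p = 0.000431). With sgCbfa2t3 it was at 139, 146 and 124 TPM, which did not pass (-0.40, adjusted p = 0.135), and sgZbtb1 and sgCbfa2t3 did not differ beyond their spread (adjusted p = 0.60). *Celsr1*, a cadherin of planar cell polarity, fell from 44.1, 35.3 and 45.1 to 26.8, 17.7 and 23.1 TPM (-0.86, standard error 0.23, adjusted p = 0.0122). That call was lost without sgCont replicate 1 (adjusted p = 0.0527) or 3 (0.0738) or sgZbtb1 replicate 2 (0.107). *Bmp2k*, a kinase that acts in endocytosis, fell from 143 ± 13.5 to 104 ± 6.05 TPM (SD, n = 3 each; log2 fold change -0.46, adjusted p = 0.0185, limma) and lost the call without sgCont replicate 1 (0.117) or sgZbtb1 replicate 3 (0.106). *Prkcb*, a protein kinase C, had 5.81, 5.79 and 2.93 TPM in sgControl and 0, 0.956 and 1.47 TPM in sgZbtb1, all 3 at or under the floor. Its call (adjusted p = 0.0367) was lost without sgCont replicate 1 (0.117) or 2 (0.137) or sgZbtb1 replicate 1 (0.191) or 2 (0.0638), and with both count models.

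*Acsl3*, *Pcyt1a* and *Pnpla8*, which encode enzymes of lipid metabolism, were among the genes that fell. They are set together after their values were seen, no list of such genes was counted, and *Crls1*, the gene of cardiolipin synthase, had a log2 fold change of 0.50 (adjusted p = 0.273). *Acsl3*, which activates long-chain fatty acids, had scores of 221.1 and 20.9. It was at 85.4, 88.6 and 85.0 TPM in sgControl and 53.1, 48.8 and 52.5 TPM in sgZbtb1, a log2 fold change of -0.74 (standard error 0.15, adjusted p = 0.000634). The replicates were close in both groups, and with sgCbfa2t3 the gene was at 68.1 to 81.5 TPM. *Pcyt1a*, the rate-limiting enzyme of phosphatidylcholine synthesis, fell from 110.2 ± 4.6 to 79.4 ± 2.34 TPM (SD, n = 3 each; log2 fold change -0.47, adjusted p = 0.0190, limma). Without sgCont replicate 2 or 3 or sgZbtb1 replicate 1 or 2 its adjusted p was 0.0503 to 0.0917. *Pnpla8*, a phospholipase whose Zbtb1 score of 15 is the lowest listed, was at 28.5, 26.0 and 31.7 TPM and at 14, 16.7 and 15.2 TPM (-0.87, standard error 0.25, adjusted p = 0.0242). It lost the call without sgCont replicate 1 or 3 or sgZbtb1 replicate 1 or 3 (adjusted p 0.0594 to 0.111). Against sgCbfa2t3, where it was at 37, 26.8 and 37.1 TPM, the log2 difference was -1.08 (adjusted p = 0.00760), a call lost without sgZbtb1 replicate 1 (0.0503) or sgCbfa2t3 replicate 1 (0.0721) or 3 (0.0644).

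*Ddx6*, an RNA helicase of processing bodies, fell from 501, 488 and 476 TPM to 408, 368 and 364 TPM, a log2 fold change of -0.36 (standard error 0.09, adjusted p = 0.00500). The change was small, and the groups did not overlap, as in all 17 genes called in sgZbtb1. *Zfand5*, a ubiquitin-binding zinc finger protein, fell from 67.9, 80.5 and 74.5 to 49.7, 50.2 and 40.8 TPM (-0.66, adjusted p = 0.00782), a call lost without sgCont replicate 2 (0.0576) or sgZbtb1 replicate 3 (0.0781). *Uchl5*, a deubiquitinase of the proteasome, rose from 109.8, 105 and 97.3 TPM to 153, 157 and 151 TPM, above all 12 other libraries. Its log2 fold change was 0.56 (standard error 0.12, adjusted p = 0.00209). *Hspd1*, the mitochondrial chaperonin Hsp60, rose from 319, 326 and 267 to 442, 369 and 355 TPM (0.35, adjusted p = 0.0288), and lost the call without sgCont replicate 3 (0.229) or sgZbtb1 replicate 1 (0.233). It shares its promoter with *Hspe1*, the gene of the cochaperonin on the other strand, which had a log2 fold change of 0.31 and did not pass (adjusted p = 0.0705). *Fmnl1*, a formin that builds actin filaments, rose most of the 3, from 81.9, 102 and 66.3 TPM to 139, 134 and 153 TPM. Its log2 fold change was 0.78 (standard error 0.14, adjusted p = 8.86e-05), and against sgCbfa2t3 it was 0.70 (adjusted p = 0.00115). Its promoter had the higher score for Cbfa2t3 (39.6, and 16.5 for Zbtb1).

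*Bmf* and *Repin1* were lower genes at low or moderate levels. *Bmf*, a pro-apoptotic BH3-only gene, was at 15.7, 18.5 and 8.79 TPM and at 7.26, 3.82 and 5.40 TPM (-1.21, adjusted p = 0.0486), and only 5 of 14 alternatives kept its call. *Repin1*, a zinc finger gene, was at 79.0, 74.1 and 89.1 TPM and at 57.5, 58.3 and 57.0 TPM (-0.48, adjusted p = 0.0490), and leaving out any 1 of the 6 libraries gave an adjusted p of 0.0638 to 0.203. For *Bmf* these were 0.116 to 0.219 without sgCont replicate 1 or 2 or sgZbtb1 replicate 2 or 3. Calls of *Runx1*, *Ywhah*, *Tyrobp*, *Acsl3*, *Ddx6*, *Fmnl1* and *Uchl5* held under all 14 alternatives tried for a gene.

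**Figure D5:**
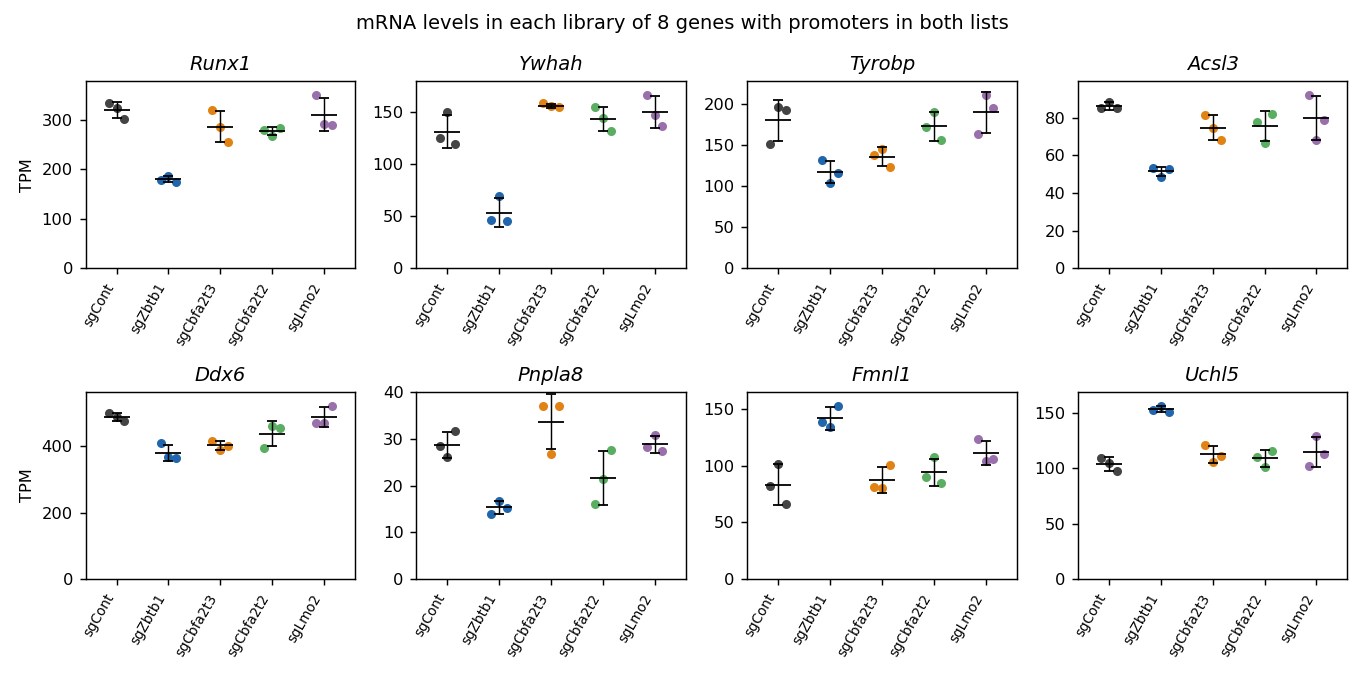
mRNA level (TPM, linear axis from 0) of 8 genes with promoters in both lists, 1 point per library, with mean and SD (n = 3) for sgCont and the libraries labelled sgZbtb1, sgCbfa2t3, sgCbfa2t2 and sgLmo2. In Runx1, Ywhah and Acsl3 the 3 sgZbtb1 points lie below all others, in Fmnl1 and Uchl5 above all others, and in Tyrobp, Ddx6 and Pnpla8 they lie below sgCont.

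In the libraries labelled sgCbfa2t3, 0 of the 205 genes passed an adjusted p of 0.05 in limma, where 0.537% of all genes passed. An unadjusted p under 0.05 was found for 21 of them (10.2%, against 10.6% of all), of which 16 were lower and 5 higher. edgeR on recovered reads also called 0, with 23 genes at an unadjusted p under 0.05. DESeq2 gave an adjusted p for 101 of the 205 genes and called 0 of these, with 16 genes at an unadjusted p under 0.05. The share of all genes with such an unadjusted p was not counted for edgeR and DESeq2. The nearest to the threshold, named after its values were seen, was *Grap2*, an adaptor of T-cell receptor signalling with 2 Runx cores at its promoter. It was at 22.1, 44.6 and 32.8 TPM in sgControl and 26.8, 13.1 and 12.2 TPM in sgCbfa2t3, which overlapped (-0.93, adjusted p = 0.0879). It became the 1 gene called without sgCont replicate 1, and likewise without sgCbfa2t3 replicate 1. *Ttc32* followed, from 16.3, 12.2 and 9.97 to 30.6, 22.3 and 23.3 TPM (0.95, adjusted p = 0.0899). Since all comparisons use the same sgControl libraries, these values stand beside those of sgZbtb1 as descriptions. For *Ttc32*, the 12 libraries of the other conditions were all above the 3 of sgControl.

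In the libraries labelled sgLmo2, limma called 0 of the 205 genes (0.0173% of all genes), and 7 genes (3.41%, against 5.65% of all) had an unadjusted p under 0.05. edgeR and DESeq2 called 0 as well and put 5 genes each under that limit, for which their shares over all genes were not counted. With sgCbfa2t2, 1 gene passed and was lower (0.147% of all genes passed, and 0.121% were lower), and 18 genes (8.78%, against 9.56% of all) had an unadjusted p under 0.05. The 1 gene was *Nktr*, at 252, 304 and 348 TPM in sgControl and 222, 186 and 229.9 TPM in sgCbfa2t2, a log2 fold change of -0.49 (standard error 0.11, adjusted p = 0.0243). The call was lost without sgCont replicate 2 (0.167) or 3 (0.311) or sgCbfa2t2 replicate 2 (0.400). In sgZbtb1 *Nktr* was at 249, 236 and 235 TPM (-0.32, adjusted p = 0.0795), and it was called there with the replicate number as a block. Compared directly, sgZbtb1 and sgCbfa2t3 differed at 4 of the 205 genes, 1.95% where 1.13% of all genes passed. These were *Runx1*, *Ywhah* and *Pnpla8*, lower in sgZbtb1 (0.822% of all genes were), and *Fmnl1*, higher in sgZbtb1 (0.303% of all).

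Genes at the promoters with the highest scores were followed in sgZbtb1, where 8.29% of the 205 genes passed. Of the 53 tested with a Zbtb1 score of at least 100, 6 passed (11.3%), and of the 5 with such a Cbfa2t3 score 1 did. Of the single-copy promoters with the highest scores, *Fam53a*, *Brpf1*, *Tsc22d2*, *Msh6* and *Manf* had adjusted p-values of 0.243 to 0.924 in sgZbtb1, at sgControl means of 26.0 to 288 TPM. *Nktr* had 0.0795 and was called only with the replicate number as a block among the block and the 2 count models. *Tyrobp* was the 1 gene that passed among those highest for Cbfa2t3. *Zbed4*, high for both factors, averaged 165 ± 13.9 TPM in sgControl against 177 ± 22.0 TPM in sgZbtb1 (SD, n = 3 each; limma adjusted p = 0.732). *Kcnn4*, with its 5 Runx cores, was at 78.2 ± 4.61 and 76.8 ± 8.34 TPM (SD, n = 3 each; limma adjusted p = 0.954). *Lat* was at 11, 13.3 and 18.8 TPM and at 12.3, 8.13 and 5.89 TPM (adjusted p = 0.297), and *Cd2ap* had an adjusted p of 0.869. A p above the threshold does not show that the levels were equal. Over genes, Spearman's rho between the Zbtb1 score and the size of the log2 fold change in sgZbtb1 was -0.10.

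Lists of related genes were compared with the promoters bound by both. Of 20 genes of the Lmo2 complex and the Runx family, 3 (*Runx1*, *Runx3* and *Tcf3*) had a promoter bound by both, as did 1.77% of all genes tested. In the libraries labelled sgZbtb1, 4 of the 18 tested passed, where 4.79% of all genes did, with *Lyl1* and the targeted *Zbtb1* itself higher and *Runx1* and *Runx2* lower. *Runx3* was at 290.2 ± 53.8 and 282 ± 13.9 TPM (SD, n = 3 each; limma adjusted p = 0.95), and *Tcf3*, the E protein E2A, had a log2 fold change of -0.19 (adjusted p = 0.544). None of 41 other lymphoid and blood transcription factors, 22 Notch pathway genes and 53 ribosomal protein genes had such a promoter. The list of 41 does not hold *Runx1*, *Runx3* and *Tcf3*, which were counted in the list above. At that share of all genes, under 1 gene in each list would have one. In sgZbtb1, 4 of the 35 transcription factors and 1 of the 20 Notch pathway genes tested were lower and 0 higher, while 3 of the 52 ribosomal protein genes tested were higher. Of all genes, 2.94% were lower and 1.85% higher.

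Of 22 genes of cell death, *Bmf*, *Bcl2l11* and *Birc2* had a promoter bound by both, as did 1.77% of all genes tested. That share also stands beside the members of the lists below, which were chosen with earlier results known. *Bcl2l11*, which encodes the BH3-only protein Bim, had a log2 fold change of -0.20 (adjusted p = 0.384) and *Birc2*, an inhibitor of apoptosis, -0.62 (adjusted p = 0.127) in sgZbtb1. Of the 20 tested, *Bmf* and *Bcl2* were lower and 0 higher, against 2.94% and 1.85% of all genes. *Socs2* and *Cish*, both induced by STAT5 and feedback inhibitors of cytokine receptors, were the members among 29 genes of cytokine receptors and JAK-STAT signalling. *Socs2* had -0.09 (adjusted p = 0.494) and *Cish* -0.28 (adjusted p = 0.480), and *Kit* and *Pim2*, whose promoters are not among the 233, were lower of the 29 tested (2.94% of all genes were). Of 42 splicing genes, *Ddx5*, *Hnrnpa2b1* and *Srsf3* had such promoters at 761, 805 and 475 TPM, with log2 fold changes of 0.01, 0.02 and 0.11. From the lists of chromatin modifiers, corepressors and BTB zinc finger genes, which do not hold every such gene among the 233 promoters, came *Dnmt3a* (-0.21), *Setd1a* (-0.05), *Tbl1xr1* (-0.03) and the BTB factor *Zbtb18* (0.23), with adjusted p-values of 0.286 to 0.946. *Xrcc6* of DNA repair, *Ccnd3* of the cell cycle and *Ndufs7* of the respiratory chain did not pass either (adjusted p 0.195 to 0.993).

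At 30 coding genes on the other strand or further along the same promoters, 23 of which were tested, 2 passed in sgZbtb1 (4.79% of all genes did) and 0 in the other comparisons. *Snx5*, a sorting nexin that starts opposite *Mgme1*, was at 248 TPM in sgControl and had a log2 fold change of 0.33 (adjusted p = 0.0344), and *Ermard*, beside a *Gm3448* copy, had -1.48 at 11 TPM (adjusted p = 0.0467). Genes with further Zbtb1 peaks nearest to them were called in 4 of 63 (6.35%) in sgZbtb1, against 13 of 142 (9.15%) of genes with neither a further Zbtb1 peak nor a distal site bound by both.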

How the data were processed

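QuantSeq was analysed in 15 libraries (5 sgRNA conditions with 3 replicates each), and ChIP-seq as 1 peak list for each factor from 2 replicates with inputs. Groups and replicate numbers came from the sample labels. For QuantSeq the authors used fastp for trimming and STAR for mapping to mm10, and gave each Ensembl gene its reads scaled to a fixed library total. The authors call these deposited values TPM, but they are CPM: in each library they are whole multiples of 1 step whatever the gene's length (100% of values above 0, to within 0.1 of a read). The test had been planned for TPM and was kept. A line without a gene, at most 5.86e-05% of a library, was left out, as were the authors' own averages, deviations, p-values and fold changes, and 0 other columns of single samples existed. ChIP-seq reads were mapped by the authors with Bowtie 1.1.1, which kept those that fit several places, and HOMER called peaks against input. The deposited Peak Score (lowest 15) and focus ratio, a fraction between 0 and 1, were used as listed, together with the distance to the nearest transcription start that the authors deposited. The lists hold no depth.

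Overlap was at least 1 bp. Nearest genes were matched by Ensembl identifier (199), RefSeq accession (28) or symbol (1). The limma package, version 3.58.1, in R 4.3.3 was run with a mean-variance trend, two-sided, on log2(TPM + 1) for genes with a mean above 1 TPM. Motifs were counted on both strands in 200 bp of mm10 around peak centres and GENCODE starts. The sequences printed were read from mm10. Near-identical copies had at most 37 differences in 371 bp. Alternatives were a pseudocount of 0.1, no filter, a mean above 10 TPM, the 6 libraries of a comparison alone, the replicate number as a block, size factors by median of ratios, edgeR 4.0.16 and DESeq2 1.42.0 on recovered reads, each library left out, the rule of the study in the limma fit (log2 fold change above 1 in size, unadjusted p under 0.05 and above 10 TPM), other definitions of the promoters and, added after the data were seen, leaving out copies. The overlaps, motif counts and limma fit were tested on simulated data.

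Genes named are the 10 promoters highest in each score, members of the gene lists, genes past the adjusted threshold with up to 10 per direction, and promoters at the edge of the selection. *Kcnn4*, *Grap2*, *Ptma*, *Prkcb*, *Crls1*, the genes with repeated Runx cores and the genes on the other strand were named after their values were seen. One of the genes called is counted but not reported here by name. The promoters and gene lists were chosen with earlier results of these data known. The labels do not say that replicates were separate cultures, so p-values measure the spread between these libraries. Pearson's r between replicates was 0.957 to 0.967 across genes, and they differed by more than sampling noise (chi-square per degree of freedom 2.22 to 3.60). Floors and intervals cover counting error only.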

Additional observations from a re-analysis of the deposited data

How the results depend on the processing

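The promoters bound by both became 152 with peak centres within 100 bp, 67 with a score of at least 30 in both lists and 478 for any Zbtb1 peak within 1 kb of an annotated start. The median level moved from 43.1 TPM to 40.3 TPM with that score, 37.4 TPM with every coding gene within 1 kb, 37.4 TPM with an overlap of at least 50% and 46.5 TPM without copies. The share with a Runx core moved from 21.9% to 15% in 100 bp windows and 31.3% with that score. The 17 genes called in sgZbtb1 became 3 under the rule of the study and 3 with that score, and 11 to 14 with each library left out. In sgCbfa2t3 the count was 0 to 1 with each library left out, in sgLmo2 0 under every setting, and in sgCbfa2t2 the 1 gene became 0 with a pseudocount of 0.1, without a filter, under the rule of the study and in 3 of the 6 fits with a library left out (0 to 1). The 4 genes that differed between sgZbtb1 and sgCbfa2t3 became 1 with that score and 3 to 4 with each library left out. They became 5 with edgeR or DESeq2, which both added *Uchl5*. The count was also 5 with size factors, with the 6 libraries alone and with a mean above 10 TPM. No direction reversed, and the cause of these shifts was not tested. Same-numbered libraries had correlations of deviations from -0.007 to 0.066, with a mean of 0.028, against a mean of -0.014 for different numbers. Of the 15 libraries, 14 correlated best with their own number. The labels do not say that the numbers pair libraries, and the main fit did not pair them. Its p-values and counts therefore leave out this weak pairing. With the replicate block, 21 genes were called in sgZbtb1 (the same 17 among them), 0 in sgCbfa2t3 and sgLmo2, 1 in sgCbfa2t2 and 6 between sgZbtb1 and sgCbfa2t3. Over all genes the block gave 709, 93, 14, 36 and 166 calls in the order sgZbtb1, sgCbfa2t3, sgLmo2, sgCbfa2t2 and sgZbtb1 against sgCbfa2t3, against 554, 62, 2, 17 and 130. Scores without depth or replicate error, and 3 libraries a condition, limit these results, and genes below 1.43 to 1.76 TPM could not be measured.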
